A study of Homo sapiens with 12 samples.

Results

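The insulin-like growth factor 2 (IGF2) axis was described here through 10 genes: the ligand IGF2, the receptors IGF1R, INSR and IGF2R, the binding proteins IGFBP1, IGFBP2, IGFBP3 and IGFBP4, and the IGF2 mRNA-binding proteins IGF2BP1 and IGF2BP3. They are 10 of the 18852 genes named by the platform's probe annotation, and all 13 probes that carry their symbols were taken. Huh7 is an established human line from a well-differentiated hepatocellular carcinoma. The tested cells (siTRPC1) received 2 µg of a vector that expresses a silencing sequence against the calcium channel TRPC1. The control cells received 2 µg of the empty vector. The vector into which the sequence was cloned carries GFP. Both groups were cultured with serum and harvested 48 h after transfection. The transfection was transient, and sorting of transfected cells is not described. Each group has 6 samples, and each sample was hybridised to 1 bead array of 48803 probes.

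IGF2 is a secreted growth factor that is abundant in fetal liver and often expressed again in hepatocellular carcinoma. It signals through the tyrosine kinase IGF1R and through INSR, the insulin receptor, whereas IGF2R carries it to lysosomes for degradation. Secreted IGF-binding proteins hold IGFs in the extracellular space, and the IGF2BP proteins bind IGF2 and other mRNAs in the cytoplasm and affect their stability and translation.

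A promoter entry of RefSeq (GRCh38.p14) was found for 7 of the 10 genes. Shown are the 250 bases before the start site of the 3 genes that also had a detected probe, written 5′ to 3′ on the strand of the gene. Capitals mark the GC box GGGCGG and its reverse complement CCGCCC.
IGF2R promoter, chr6:159968832-159969081, plus strand: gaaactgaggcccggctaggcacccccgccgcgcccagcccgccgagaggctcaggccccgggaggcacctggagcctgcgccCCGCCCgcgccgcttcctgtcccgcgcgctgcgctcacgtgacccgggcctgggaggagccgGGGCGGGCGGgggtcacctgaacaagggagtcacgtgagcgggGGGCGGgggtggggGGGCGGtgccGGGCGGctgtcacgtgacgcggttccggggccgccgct
IGFBP3 promoter, chr7:45921273-45921522, minus strand: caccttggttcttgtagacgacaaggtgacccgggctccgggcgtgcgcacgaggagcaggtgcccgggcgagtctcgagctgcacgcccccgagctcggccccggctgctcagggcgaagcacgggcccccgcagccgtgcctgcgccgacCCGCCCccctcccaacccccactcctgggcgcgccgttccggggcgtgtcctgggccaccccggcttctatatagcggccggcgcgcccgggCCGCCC
IGF2BP3 promoter, chr7:23470492-23470741, minus strand: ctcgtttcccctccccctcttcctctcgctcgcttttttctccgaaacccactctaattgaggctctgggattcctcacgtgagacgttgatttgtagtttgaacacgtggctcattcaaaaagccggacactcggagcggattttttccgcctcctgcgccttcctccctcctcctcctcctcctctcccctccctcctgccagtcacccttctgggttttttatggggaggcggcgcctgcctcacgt

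The GC box, searched on both strands with overlaps counted, occurred 6 times in the IGF2R window, 2 times in that of IGFBP3 and 0 times in that of IGF2BP3. It occurs in 42.6% of the 35114 windows of the same length in the table. The windows of IGF1R, INSR and IGFBP4, whose probes failed the detection filter described below, held it 2, 4 and 1 times, and the 3 windows of IGFBP2, also undetected, held it 1, 1 and 0 times. The observed to expected ratio of CpG dinucleotides was 0.85 in IGF2R, 0.90 in IGFBP3, 0.83 in IGF2BP3, 1.18 in IGF1R, 0.73 in INSR, 0.76 in IGFBP4 and 0.36, 0.81 and 0.21 in the windows of IGFBP2, against a median of 0.56 over all windows. Such matches describe the letters of a window and were not related to the expression values.

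A log2 value below is the background-corrected, quantile-normalized brightness of a probe, and a difference is the siTRPC1 mean minus the control mean on that scale. A probe was called detected on an array when its detection p-value against the negative controls was under 0.01. Averaged over its probes, an array had an intensity of 565.9 to 687.9 in siTRPC1 (median 633.3) and of 457.5 to 641.6 in control (median 591.1), and control arrays 1 and 2 were the dimmest. The labels do not state that arrays came from separate cultures, so the spread between them may be technical. Of the hepatocyte markers, 9 of 9 matched genes were detected on every array, among them ALB and AFP, whereas the endothelial genes VWF, CDH5, KDR and TEK and the leukocyte genes PTPRC and CD3E were detected on 0. Other genes of the lists for non-hepatocyte types were detected on all 12 arrays: endothelial PECAM1, leukocyte CD14 and CD68, and COL1A2 of fibroblasts and stellate cells. Of the fibroblast and stellate list, COL1A1, COL3A1, DCN and LUM were detected on 0 arrays and PDGFRB on 9. In limma, 208 of 12902 tested probes had an adjusted p under 0.05, 123 higher and 85 lower in siTRPC1. With median centring in place of the quantile step, the median difference of all tested probes was -0.0229, against -0.0045, and the split was 96 higher and 112 lower. TRPC1 itself had a lowest, median and highest log2 value of 8.48, 8.57 and 8.83 in siTRPC1 and 8.73, 8.76 and 9.04 in control. Its difference was -0.19 (exact two-sided permutation p = 0.0303, n = 6 per group), with 5 of 6 siTRPC1 arrays below every control array, and limma did not call it (adjusted p = 0.301). The permutation treats the 12 arrays as exchangeable, although arrays with adjoining numbers were alike (consensus correlation 0.313), so its p assumes more independence than they have. As deposited the mean intensity of TRPC1 was 415.6 in siTRPC1 and 404.9 in control. The permutation p was 0.0563 without siTRPC1 array 2, 4 or 6 and 0.0649 without siTRPC1 array 3. In the other 8 of 12 fits that left out 1 array it stayed under 0.05, from 0.00216 (without siTRPC1 array 5) to 0.0498 (without control array 5).

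The IGF axis of these cells was only partly visible on the arrays. A probe was tested when it was detected on at least 6 of the 12 arrays, which held for 7 of the 13 probes, each detected on all 12 arrays, and for 5 of the 10 genes: IGF2, IGF2R, IGFBP3, IGF2BP1 and IGF2BP3. IGF1R, INSR, IGFBP1, IGFBP2 and IGFBP4 had no tested probe. The genes were selected on the difference of IGF2 between siTRPC1 and control on these arrays, together with its known partners, so the differences of their probes are given as a description and without a p-value. Of the 7 tested probes, 1 probe, for IGF2, was among those called by limma, beside 1.61% of all tested probes called in either direction and 0.953% called higher. On 0 of the 7 did the 2 groups fail to overlap, beside 2.15% of all tested probes. In RNA of whole cultures, fewer expressing cells and less RNA per cell cannot be told apart.

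IGF2 lies at chr11:2129117-2149566 (GRCh38.p14) and had 3 probes. The brightest, ILMN_2413956, had log2 values of 8.49, 8.89, 8.93, 8.87, 8.15 and 8.53 in siTRPC1 arrays 1 to 6, against 7.73, 7.83, 8.17, 8.05, 8.34 and 8.22 in control arrays 1 to 6. All siTRPC1 arrays except array 5 lay above every control array, and siTRPC1 array 5 lay among the controls. The mean was 8.64 ± 0.31 in siTRPC1 and 8.05 ± 0.24 in control (SD, n = 6 each), a difference of 0.59 (standard error 0.14) or 1.5-fold. Before normalization its mean intensity was 433.1 in siTRPC1 and 239.5 in control cells. Arrays of a group resembled those with adjoining numbers (consensus correlation 0.313). By array number the difference was 0.91 between arrays 1 and 2 of the groups, 0.79 between arrays 3 and 4 and 0.07 between arrays 5 and 6. Equal numbers do not pair the groups (r of deviations -0.07 to 0.03). Differences by array number, here and below, therefore describe the arrays and are not replicates of the contrast. The lowest 2 control values were those of the dim arrays 1 and 2. Without both of these the difference was 0.450, and limma no longer called the probe. The call was also lost without siTRPC1 array 2, 3 or 4 (0.539, 0.534 and 0.545), without control array 1 or 2 alone (0.524 and 0.544), and when adjoining arrays were treated as correlated (0.589). It was kept in the 10 arrays analysed by the study, which leave out array 5 of both groups (0.743).

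**Figure D1:**
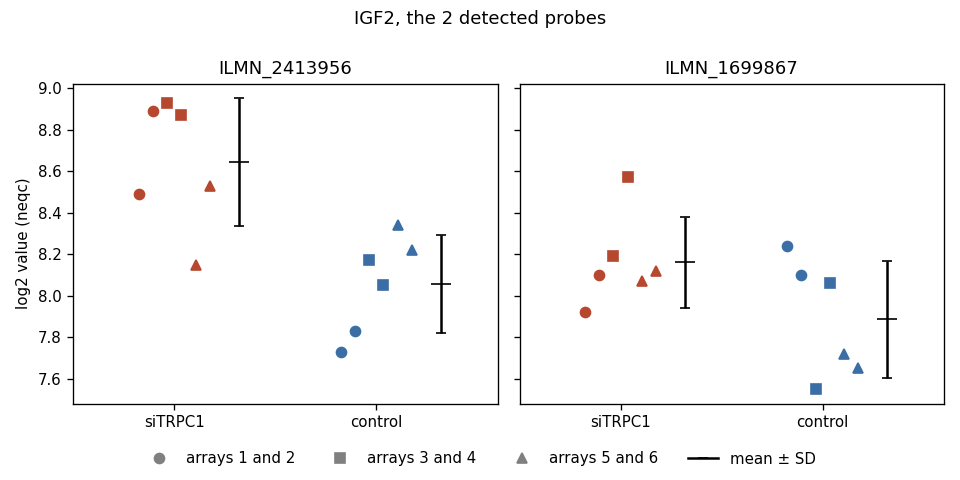
Log2 values of the 2 detected IGF2 probes on each array, with siTRPC1 to the left of control. Symbols mark arrays 1 and 2, 3 and 4, and 5 and 6, from left to right in each group, and the bar gives the mean ± SD of 6 arrays. On ILMN_2413956 control arrays 1 and 2 are the lowest controls (7.73 and 7.83), and on ILMN_1699867 they are the highest (8.24 and 8.10).

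The second IGF2 probe, ILMN_1699867, is assigned to another RefSeq transcript of the gene and was not called. Its log2 values were 7.92, 8.10, 8.19, 8.57, 8.07 and 8.12 in siTRPC1 arrays 1 to 6, against 8.24, 8.10, 7.55, 8.06, 7.72 and 7.65 in control arrays 1 to 6. The groups overlapped, and only siTRPC1 array 4 exceeded every control array. The mean was 8.16 ± 0.22 in siTRPC1 and 7.88 ± 0.28 in control (SD, n = 6 each), a difference of 0.27 (standard error 0.14) or 1.21-fold. Here control arrays 1 and 2 were the highest controls, the reverse of the brightest probe, and the difference was -0.17 between arrays 1 and 2, 0.58 between arrays 3 and 4 and 0.41 between arrays 5 and 6. On both probes all 6 siTRPC1 arrays lay above the control median and arrays 3 and 4 differed in the same direction, whereas arrays 1 and 2 differed in opposite directions. The third IGF2 probe, which was not detected, likewise had all 6 siTRPC1 arrays above the control median. Its difference between arrays 3 and 4 was 0.28, so this pattern also occurred without a detected signal. Without control arrays 1 and 2 the difference of ILMN_1699867 was 0.419, and it was still not called.

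Whether the 2 probes of a gene varied together was examined on their deviations from the group means, which leave out the contrast itself. For the IGF2 probes Pearson r was -0.17 over 12 arrays (permutation p = 0.607, adjusted over 2 relations 0.607) and Spearman rho -0.10 (permutation p = 0.772, adjusted 0.772). Without the 2 arrays farthest from the median on the brightest probe alone, siTRPC1 array 5 and control array 1, r was -0.06. Within siTRPC1 r was 0.52 and rho 0.66 (exact permutation p = 0.290 and 0.175, n = 6), and within control r was -0.87 and rho -0.77 (exact permutation p = 0.0306 and 0.103, n = 6), values not adjusted for the 2 genes. For the IGFBP3 probes r was 0.67 (permutation p = 0.0235, adjusted 0.0470) and rho 0.59 (permutation p = 0.0688, adjusted 0.138). Without control array 6 and siTRPC1 array 2, the 2 farthest from the median on the brighter IGFBP3 probe alone, r fell to 0.34. Within siTRPC1 the IGFBP3 probes had an r of 0.86 and a rho of 0.49 (exact permutation p = 0.0486 and 0.356, n = 6), and within control 0.61 and 0.43 (exact permutation p = 0.208 and 0.419, n = 6). Arrays with adjoining numbers are alike, so these p-values assume more independence than the arrays have.

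The third IGF2 probe, ILMN_2298035, was detected on 0 arrays, with intensities of -22.4 to 7.69 in siTRPC1 and -44.2 to 17.7 in control. It is assigned to the same RefSeq transcript as the brightest probe, ILMN_2413956, which limma called. INS-IGF2, a read-through gene at chr11:2129117-2161209 that joins the insulin gene to IGF2 and spans it, had 2 probes, which were also detected on 0 arrays. Their intensities were 22.5 to 70.0 and -37.0 to 19.9 in siTRPC1, against 18.5 to 44.2 and -27.8 to 22.9 in control. No separate signal of the read-through transcript was thus measured. H19, an imprinted long non-coding RNA gene near IGF2 at chr11:1995176-2001266, was detected on 0 arrays by its probe.

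Over the deviations from the group means of 12 arrays, the genes most like the brightest IGF2 probe were GPRASP2, PSMG2 and PRKAG2, with r of 0.903, 0.887 and 0.869 among 8864 genes compared. Their own differences between siTRPC1 and control were -0.10, -0.01 and 0.18. These correlations describe the same 12 arrays, which share array order, and the highest of so many values is large by selection.

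Of the receptors, IGF2R was the one that was detected. IGF2R, the cation-independent mannose 6-phosphate receptor, lies at chr6:159969082-160111504. Its single probe ILMN_1807662 had a lowest, median and highest log2 value of 12.01, 12.11 and 12.26 in siTRPC1 and 12.13, 12.29 and 12.39 in control. All 6 siTRPC1 values lay below the control median and 3 lay below every control. The mean was 12.12 ± 0.09 in siTRPC1 and 12.28 ± 0.10 in control (SD, n = 6 each), a difference of -0.16 (standard error 0.06), and limma did not call it. With median centring in place of the quantile step the difference was -0.203 and was not called either. Without normalization between arrays the sign was the other way: the mean intensity as deposited was 4794 in siTRPC1 and 4692 in control. By array number the difference was -0.15 (arrays 1 and 2), -0.31 (arrays 3 and 4) and -0.02 (arrays 5 and 6).

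IGF1R, the receptor that transmits the IGF signal, lies at chr15:98648539-98964530 and had 1 probe, ILMN_1675048, detected on 0 of 6 siTRPC1 and 1 of 6 control arrays. Its intensity was -4.42 to 94.5 in siTRPC1 (median 28.4) and 8.49 to 113.1 in control (median 29.0). The lowest intensity that counted as detected was 106 to 122 on the siTRPC1 arrays and 75.2 to 139 on the control arrays. INSR, at chr19:7112265-7294414, had 1 probe, ILMN_1670918, detected on 0 arrays, with intensities of 7.54 to 107.6 in siTRPC1 (median 54.1) and 0.401 to 65.5 in control (median 32.8). Apart from IGF1R on control array 1, the 1 probe of each signalling receptor stayed below its detection limit, and no change could be given.

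**Figure D2:**
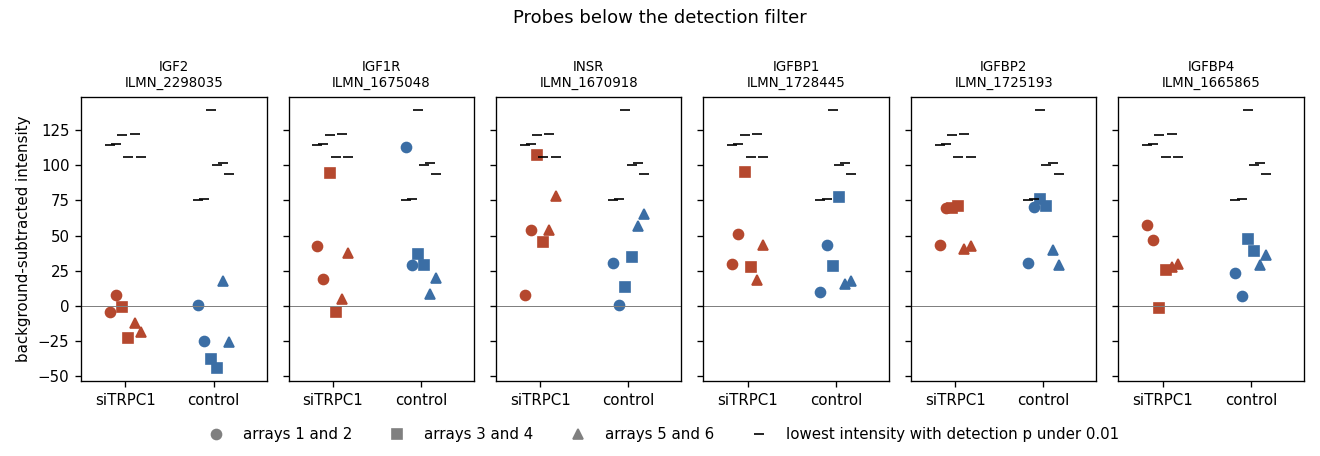
Background-subtracted intensity, in arbitrary units, of the 6 probes below the detection filter on each array, with siTRPC1 to the left of control. Short dashes give the lowest intensity on the same array with a detection p under 0.01. Of these 72 values 1 was detected, that of IGF1R on control array 1 (113.1).

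IGFBP3 was the one detected binding protein. It is the main IGF carrier of the circulation and lies at chr7:45912245-45921272, beside IGFBP1 at chr7:45888488-45893660. The brighter of its 2 probes, ILMN_1746085, had a lowest, median and highest log2 value of 8.60, 8.70 and 8.95 in siTRPC1 and 8.73, 8.92 and 9.34 in control. All siTRPC1 arrays except array 2 lay at or below 8.73, and control array 6 was the highest of the 12. The mean was 8.73 ± 0.12 in siTRPC1 and 8.96 ± 0.22 in control (SD, n = 6 each), a difference of -0.23 (standard error 0.10), and it was -0.159 without control array 6. The other probe, ILMN_2396875, had 7.60, 7.83 and 8.30 in siTRPC1 and 7.85, 8.04 and 8.49 in control as lowest, median and highest value, with a difference of -0.25 (standard error 0.14). Neither was called. Both differed little between arrays 1 and 2 of the groups (0.04 and 0.03), and more between arrays 3 and 4 (-0.36 and -0.56) and arrays 5 and 6 (-0.38 and -0.24). Before normalization the intensities of the probes were close between the groups, at 452.1 in siTRPC1 and 462.3 in control for the first and at 247.4 in siTRPC1 and 250.7 in control for the second.

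IGFBP1, a liver-secreted protein whose gene is repressed by insulin, was detected on 0 arrays, with intensities of 18.3 to 95.1 in siTRPC1 and 10.3 to 77.4 in control. IGFBP2, a carrier that is prominent in fetal plasma (chr2:216632828-216664436), gave 40.2 to 71.2 in siTRPC1 and 29.0 to 75.9 in control. IGFBP4, which inhibits IGF action until it is cleaved by the protease PAPPA (chr17:40443450-40457725), gave -1.60 to 57.4 in siTRPC1 and 7.23 to 47.3 in control. The probes of all 3 genes stayed below detection on every array of both groups, and the groups overlapped in each.

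**Figure D3:**
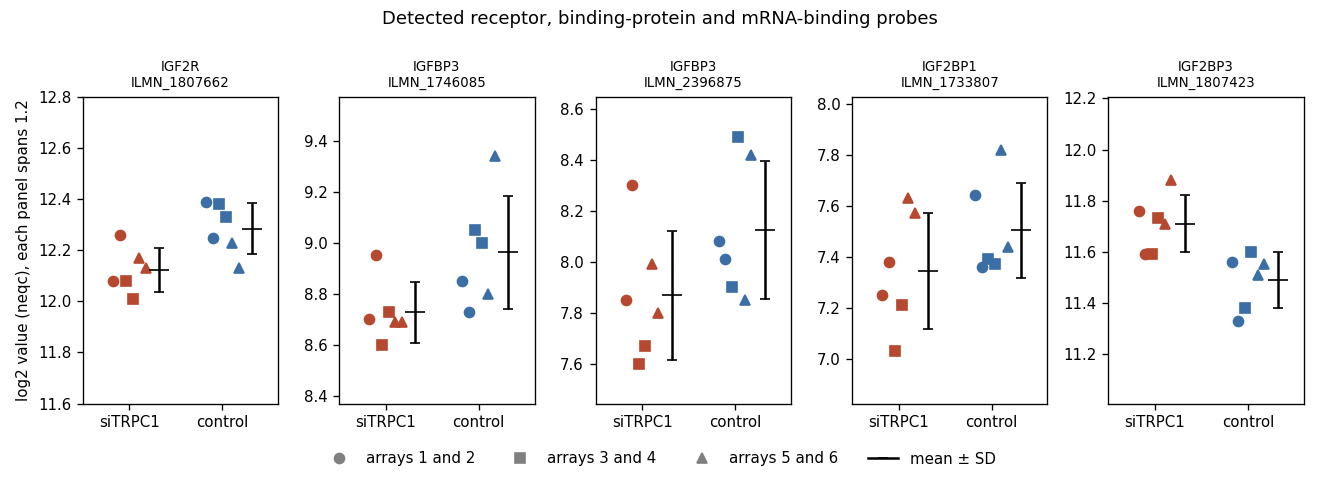
Log2 values of the 5 detected probes of IGF2R, IGFBP3, IGF2BP1 and IGF2BP3 on each array, with siTRPC1 to the left of control and the mean ± SD of 6 arrays as a bar. Each vertical axis spans 1.2. IGF2BP3 has 4 of 6 siTRPC1 arrays above every control, and the groups overlap in all 5 panels.

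IGF2BP3, an oncofetal RNA-binding protein at chr7:23310209-23470491, was bright on its probe ILMN_1807423. Its log2 values had a lowest, median and highest of 11.59, 11.72 and 11.88 in siTRPC1 and 11.33, 11.53 and 11.60 in control. Of the siTRPC1 arrays, 4 lay above every control and the other 2 just under the highest control. The mean was 11.71 ± 0.11 in siTRPC1 and 11.49 ± 0.11 in control (SD, n = 6 each), a difference of 0.22 (standard error 0.07) or 1.17-fold, and limma did not call it. By array number, which does not pair the groups, the difference was 0.23 (arrays 1 and 2), 0.17 (arrays 3 and 4) and 0.26 (arrays 5 and 6). Its mean intensity as deposited, before normalization between arrays, was 3605 in siTRPC1 and 2703 in control cells. The lowest control intensities, 2239 and 1805, were those of the dim control arrays 1 and 2.

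IGF2BP1, its paralog at chr17:48996558-49056145, was close to the detection limit on its probe ILMN_1733807, with detection p-values of 0.003 to 0.007 in siTRPC1 and likewise 0.003 to 0.007 in control. Its log2 values had a lowest, median and highest of 7.03, 7.31 and 7.63 in siTRPC1 and 7.36, 7.42 and 7.82 in control. The groups overlapped, with 3 siTRPC1 arrays below every control. The mean was 7.34 ± 0.23 in siTRPC1 and 7.50 ± 0.19 in control (SD, n = 6 each), a difference of -0.16 (standard error 0.14), which limma did not call. It was -0.097 without control array 5 and -0.098 without siTRPC1 array 3. As deposited, its mean intensity had the other sign, 164.5 in siTRPC1 and 154.7 in control. The remaining paralog IGF2BP2, which is not among the 10 genes, had 12.47 ± 0.07 in siTRPC1 and 12.38 ± 0.06 in control (SD, n = 6 each), a difference of 0.09 (standard error 0.05, adjusted p = 0.394 in limma).

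**Figure D4:**
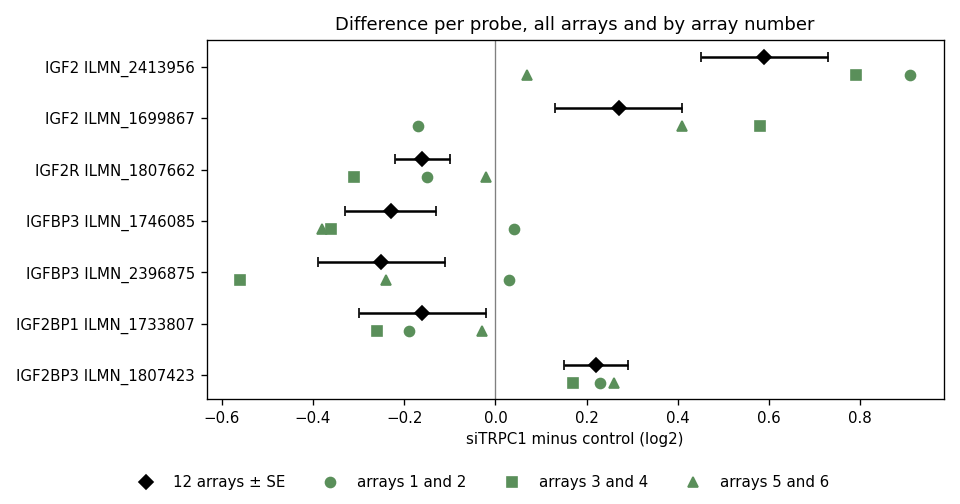
Difference between siTRPC1 and control in log2 units for the 7 detected probes. Black diamonds give the 12 arrays with the standard error, and green symbols the difference between arrays of the same numbers, which do not pair the groups. The 3 values of IGF2BP3 lie between 0.17 and 0.26, whereas those of ILMN_2413956 for IGF2 lie between 0.07 and 0.91.

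Around these genes, other parts of IGF and insulin signalling were measured with a list of 106 genes, of which 99 were matched to a probe and 61 were tested on their brightest probe. In limma 0 passed an adjusted p under 0.05 in either direction, beside 1.61% of all tested probes, a share at which few of 61 would pass. At an unadjusted p under 0.05 in limma there were 7, beside 17.1% of all tested probes. By the methods' t-test after Benjamini-Hochberg adjustment 0 passed. Their median difference was -0.003, against -0.0045 over all tested probes, and their median absolute difference 0.076, against 0.096. Of 20 further tested probes of these genes 0 passed either. The largest difference was that of PIK3R1, the regulatory subunit of PI3-kinase, which had 9.22 ± 0.22 in siTRPC1 and 8.77 ± 0.39 in control (SD, n = 6 each) and a difference of 0.45 (standard error 0.14, adjusted p = 0.104 in limma). Without control array 5 it was 0.55 and passed (adjusted p = 0.0328 in limma). In the same PI3K and AKT group the catalytic subunit PIK3CB had -0.20 (standard error 0.10, adjusted p = 0.297 in limma).

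Among proteases that act on IGFBPs and their inhibitors, the secreted glycoprotein STC2, which inhibits PAPPA, had 10.64 ± 0.09 in siTRPC1 and 10.86 ± 0.08 in control (SD, n = 6 each), a difference of -0.22 (standard error 0.06, adjusted p = 0.0791 in limma). It passed with median centring (-0.24, adjusted p = 0.0459 in limma). The protease FURIN had a difference of 0.21, and PAPPA itself was detected on 0 arrays. Among IGF2BP partners and target mRNAs, HNRNPU had 0.27 (adjusted p = 0.108 in limma) and the mRNA-stabilising protein ELAVL1 0.15. Receptor adaptors ranged from -0.18 (GRB10) to 0.16 (SH2B1), with the phosphatase PTPN11 at -0.17. Genes of mTOR signalling ranged from -0.11 (MLST8) to 0.09 (EIF4EBP1). The FOXO target SESN1 had 0.22 (adjusted p = 0.206 in limma), and the sorting adaptor GGA3 and the receptor M6PR, which share the route of IGF2R, had 0.16 and -0.14. Of the genes near IGF2 or imprinted with it, KCNQ1 had 0.17 and PLAGL1 0.16. In the wider family, the ligands IGF1 and INS, the binding proteins IGFBP5 and IGFBP7 and IGFALS were detected on 0 arrays, and IGFBP6 on 2. Markers of bile duct cells had a summed intensity of 9343 to 11560 in siTRPC1 and 5452 to 9687 in control, with 3 of 4 detected on all arrays and KRT7 on 0. These sums use the intensities before normalization between arrays, so they also carry the brightness of each array. On the log2 scale EPCAM of this list was higher in siTRPC1 (12.18) than in control (11.83), a difference of 0.35 that limma called, and KRT19 had 0.21, SOX9 0.10. Of the hepatocyte markers, TTR was also called higher in siTRPC1 (14.64) than in control (14.40), a difference of 0.24. The other matched hepatocyte markers were not called. The part of these markers in the results above was not tested.

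**Figure D5:**
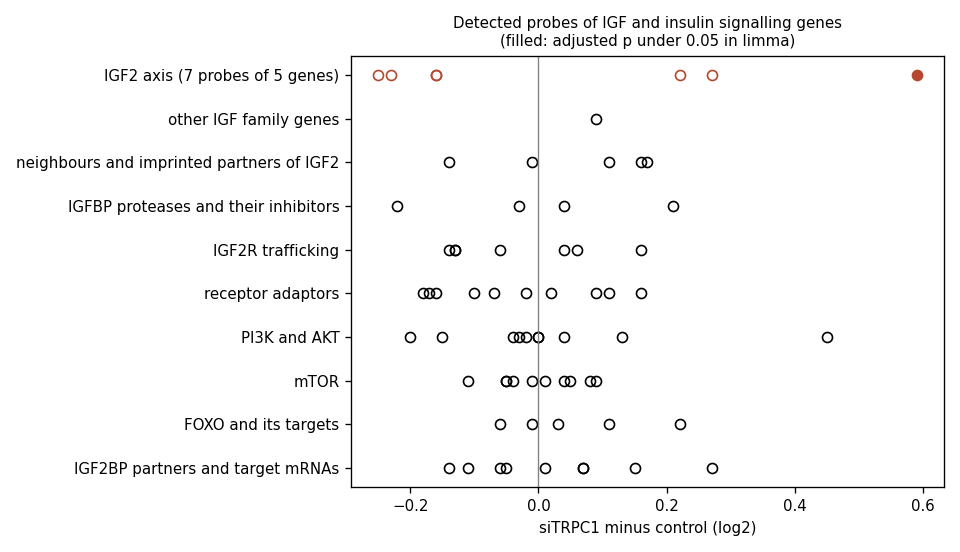
Difference between siTRPC1 and control in log2 units, 1 circle for each detected probe of the IGF2 axis (top row, 7 probes of 5 genes) and of 61 other genes of IGF and insulin signalling by group. A filled circle had an adjusted p under 0.05 in limma, as did 1.61% of all tested probes. Here this is the case for the IGF2 probe at 0.59 alone.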

How the data were processed

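Total RNA of 6 siTRPC1 and 6 control samples was labelled and hybridised to HumanHT-12 v3 bead arrays. The deposited intensity values are linear signals from which the authors subtracted background with GenomeStudio, without normalization between arrays. Per the file headers each comes with a detection p-value. The log2 values deposited by the authors were quantile-normalized with lumi (version not stated). They could be rebuilt from the intensities to within 0.011.
Background correction and quantile normalization of the 12 arrays used the neqc function (limma 3.58.1, R 4.3.3, offset 16). Probes detected (p under 0.01) on 6 or more arrays were tested with lmFit and eBayes with a trend, and p-values were adjusted by Benjamini-Hochberg over all tested probes at 0.05. All 12 arrays were used because the study left out array 5 of both groups after its comparison of TRPC1 between PCR and array, a criterion that uses the measured TRPC1 level. Rank Product, named in the study's methods, was not run. Gene names came from the platform annotation, updated through gene IDs to RefSeq (28098 probes with 1 symbol), and the brightest probe stood for a listed gene. Named are all probes of the 10 genes and, of the other lists, called genes or up to 2 with the largest difference, besides the ends of a range and genes not detected. The gene lists, the 10 genes and the alternatives were chosen with earlier results of these data known. Relations between probes used 100000 permutations within groups (numpy 2.4.6, scipy 1.17.1). With 6 arrays in a group, their number sets the precision. Tested on simulated data of 12902 probes, limma recovered 72 of 100 probes changed by 0.5 and 99 of 100 changed by 1 on the log2 scale, with 7 false calls. Simulated arrays were independent.
Alternatives changed the input to the authors' values, left out arrays, weighted or blocked them, changed the offset, filter or scaling, or used the methods' t-test.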

Additional observations from a re-analysis of the deposited data

Results flagged for a closer look

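In 28 groups of 6 arrays, the 2 groups of each of the 13 probes and of TRPC1, 4 held an array far from the others, and chance alone marks about 1 in 20. IGF1R had 7.45 on control array 1, with the nearest control at 5.96, and this was the only array on which it was detected. IGFBP3 had 8.95 on siTRPC1 array 2 on probe ILMN_1746085, with the nearest siTRPC1 array at 8.73. IGFBP4, not detected on any array, had 5.39 on control array 2, with the nearest control at 5.73. TRPC1 had 9.04 on control array 5, which the study did not analyse, with the nearest control at 8.81.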

How the results depend on the processing

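The filters, the blocks and the t-test leave a difference as it is by construction. Under the other alternatives run, all of which scale the arrays to each other, the 7 differences of the detected probes of the IGF2 axis kept their direction. In the mean intensities as deposited, without such scaling, IGF2R (4794 in siTRPC1, 4692 in control) and IGF2BP1 (164.5 and 154.7) had the other sign. Under the alternatives the difference of IGF2 ILMN_2413956 ranged from 0.450 to 0.743. Leaving out 1 array at a time it ranged from 0.524 to 0.688, and the probe was called in 7 of 12 fits. Of the 7 probes 0 were called with no filter, without control arrays 1 and 2, with adjoining arrays as a random block or by the methods' t-test, and 0 to 1 when 1 array was left out. Of all probes, 48 were called with no filter (of 48803 tested), 43 with the random block, 79 by the t-test after Benjamini-Hochberg adjustment, and 98 (without siTRPC1 array 4) to 277 (without control array 5) when 1 array was left out. Of the 61 pathway genes, 1 was called with median centring (STC2), 1 with the replicate block (PIK3R1, adjusted p = 0.0231 in limma), and 0 to 1 when 1 array was left out. The TRPC1 difference ranged from -0.229 to -0.139 when 1 array was left out, and its exact permutation p exceeded 0.05 without siTRPC1 array 2, 3, 4 or 6. Arrays with equal numbers in the 2 groups did not deviate together (r of -0.07 to 0.03), so the numbers do not pair them. With the replicate block 214 probes were called, and IGF2 ILMN_2413956 kept 0.589. The causes of these changes were not tested. Detection limits of 75.2 to 139 leave IGF1R, INSR, IGFBP1, IGFBP2 and IGFBP4 without a measured change.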
